A study of Homo sapiens with 8 samples.

Results

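The genes described are 37 chemokines, interleukins, growth factors of blood cells and inflammatory effectors, chosen by gene symbol and all found among the 60564 genes of the table. Of these, 34 had enough counts to be tested between the groups, and CCL26, IL1RN and IL33 did not. RNA was sequenced from AB8/13, a human podocyte line that grows at 33 °C and was held at 37 °C for 5 days to differentiate. Cells of the 4 control libraries had received a non-targeting shRNA, and cells of the 4 knockdown libraries shRNA directed at ATOH8, a helix-loop-helix transcription factor. Both groups therefore carried an shRNA and were exposed to the same lipid reagent, and no untransfected cells were analysed here. The line is a single cultured line with no leukocytes or vessels around it. The sources used here do not give how many shRNA sequences were directed at ATOH8, nor whether the replicates came from separate cultures, so p-values measure only how these libraries vary, which may be technical.

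Chemokines are small secreted proteins that draw leukocytes along a gradient, and each family binds its own set of G protein-coupled receptors. In many epithelial and stromal cells their genes, together with those of IL6, the colony-stimulating factors and the adhesion molecules ICAM1 and VCAM1, are switched on through NF-kB after TNF, interleukin-1 or microbial ligands are sensed, and a smaller set, among them CXCL10 and CXCL11, responds to interferons. Podocytes in the diseased glomerulus are a known source of several of these proteins, CCL2 and CXCL8 among them.

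Total counts ran from 21108695 to 27109043 per library, with the lowest total in control replicate 3. ATOH8 stood at 6.56, 6.004, 5.80 and 4.97 CPM (counts scaled to a fixed library total) in the control libraries 1 to 4 and at 2.19, 2.79, 2.63 and 2.11 CPM in the knockdown libraries 1 to 4, so the groups were apart and 41.7% of the control level was left. Below, library values are CPM scaled by TMM, a factor for RNA composition, always listed for replicates 1 to 4, and means are given with the SD over 4 libraries. Of 10 podocyte markers, NPHS1 (nephrin, of the slit diaphragm) had 0 to 6 counts per library, while WT1, PODXL, SYNPO, CD2AP, PLA2R1 and TCF21 were expressed, so this defining marker of a mature podocyte was near absent. In a bulk sample, fewer cells expressing a gene and less RNA of it per cell cannot be told apart.

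Most of the genes were lower in ATOH8 knockdown. Among those with a mean of at least 100 CPM, the neutrophil chemokines CXCL6, CXCL8, CXCL5 and CXCL1 had the lowest log2 changes. Of the 34 tested, 25 fell, 5 rose and 4 did not pass an adjusted p of 0.05 (edgeR quasi-likelihood test), against a background of 25.9% of all 16884 genes tested that were called lower and 25.2% called higher, 51.1% together. A fall of at least 1.5-fold was found for 14 of them, a share of 41.2%, where the background for such falls was 3.95%. CXCL10 and CCL5 are among the 14, and each had a knockdown library with few counts (9 and 4). The knockdown libraries alone would not have carried CXCL10 and CCL5 past the count filter. They passed through the controls, where they were high, so their falls add no support to these counts. IL11 alone rose by as much as 1.5-fold (background 6.97%). Control and knockdown libraries did not overlap for 30 of the 34, and 26 of these were lower in knockdown, where 45.6% of all genes had no overlap and 23.2% had none and were lower. The median log2 change of the 34 was -0.52, beside -0.00 over all genes tested. The list was drawn up with results of these data in view, so its counts are a description. Summed over all 37 genes, the level was 8187, 7951, 7761 and 8090.1 CPM in the controls and 5006, 5288, 5197 and 4977 CPM after knockdown, and SOD2, CXCL8, CXCL1 and IL6 made up most of it.

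**Figure D1:**
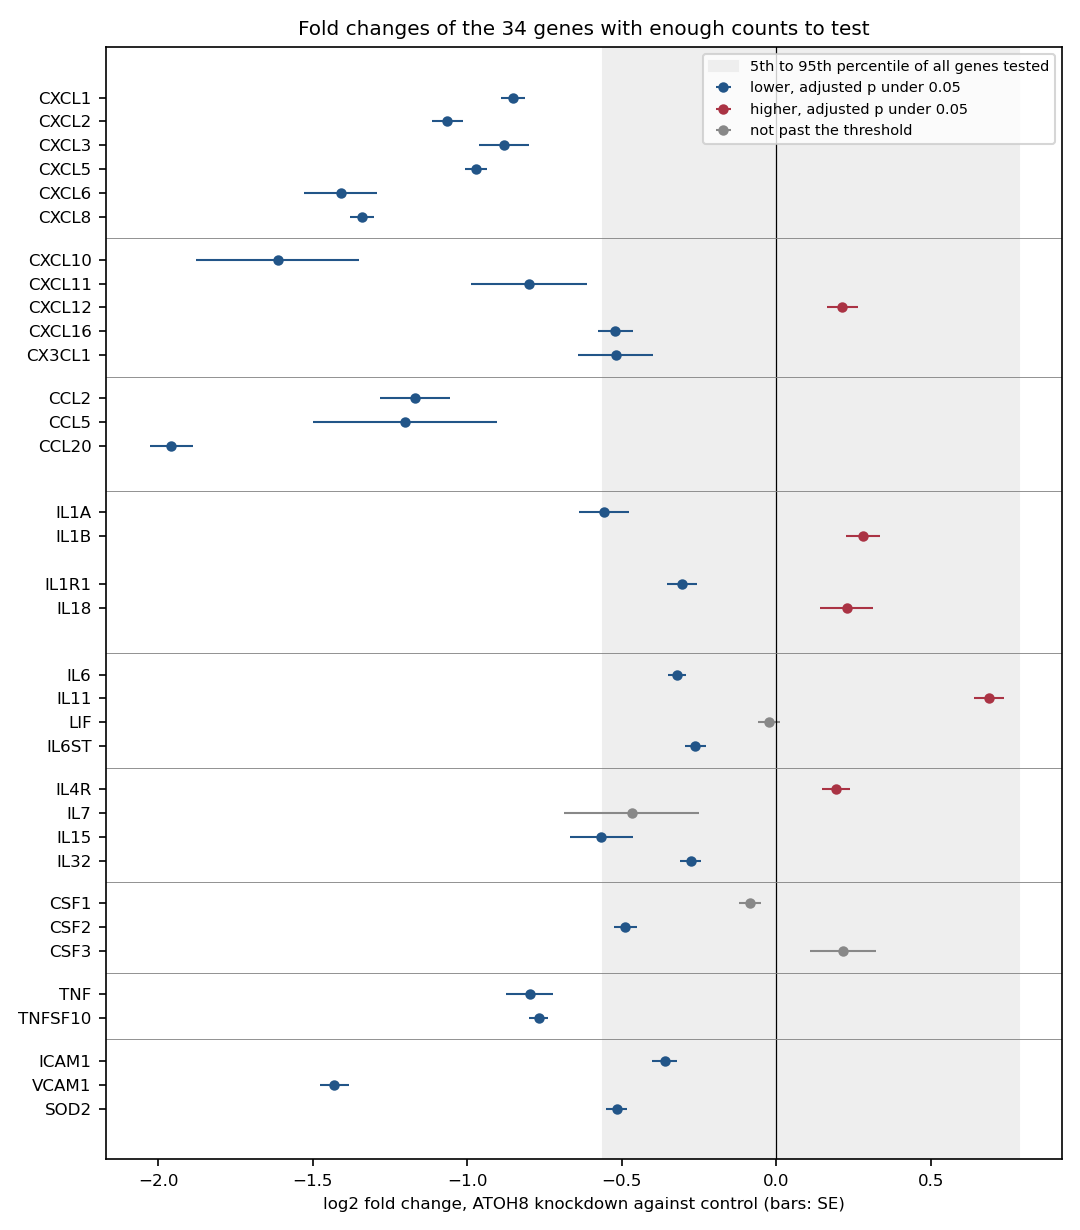
Log2 fold change of ATOH8 knockdown against control (x axis, bars are SE) for the 34 tested genes (y axis, grouped by role), with the range from the 5th to the 95th percentile of all genes tested shaded. 15 of the genes lie below the shaded range and 0 above it, and the lowest value is that of CCL20 at -1.96.

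The 6 CXC chemokines with a Glu-Leu-Arg motif before the first cysteine pair, which attract neutrophils through CXCR1 and CXCR2, all fell. CXCL8, the archetypal neutrophil chemokine, was at 1229, 1196, 1188 and 1250.0 CPM in the controls and at 470.5, 501, 509 and 439 CPM after knockdown (log2 change -1.34, SE 0.0387, adjusted p = 1.84e-18 by edgeR), which left 39.5% of the control level. CXCL1, first described as a growth-regulated gene of melanoma cells, was at 893, 805, 792 and 833 CPM in the controls and at 450.1, 465, 489 and 437 CPM after knockdown (log2 change -0.85, SE 0.0388, adjusted p = 2.01e-14 by edgeR). The highest knockdown library of each was far below its lowest control library. The near relatives CXCL2 and CXCL3 were less abundant: CXCL2 was at 44.9, 43.3, 40.7 and 41.8 CPM in the controls and at 20.5, 19.0, 21.1 and 21.1 CPM after knockdown (log2 change -1.06, SE 0.0498, adjusted p = 1.3e-16 by edgeR). CXCL3 was at 12.4, 11.8, 10.9 and 11.9 CPM in the controls and at 7.05, 6.32, 5.90 and 6.33 CPM after knockdown (log2 change -0.88, SE 0.0815, adjusted p = 3.4e-10 by edgeR). All 4 knockdown libraries of each lay below all 4 controls. These 3 transcripts resemble each other, and 5.73% of the 50-base words of CXCL1, 9.24% of those of CXCL2 and 5.26% of those of CXCL3 also occur in another gene of the trio, so a small part of their reads could have been divided between them.

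CXCL5 and CXCL6 form a second pair of close relatives. CXCL5, made by many epithelia, was at 354, 353, 338 and 349.8 CPM in the controls and at 163, 186, 181 and 182 CPM after knockdown (log2 change -0.97, SE 0.0357, adjusted p = 7.04e-19 by edgeR). CXCL6 was at 317, 297, 305 and 329 CPM in the controls and at 107, 135, 132 and 95.6 CPM after knockdown (log2 change -1.41, SE 0.119, adjusted p = 7.52e-05 by edgeR). CXCL6 was the less even of the pair: knockdown replicates 1 and 4 were lower than 2 and 3, and its biological coefficient of variation, the spread between libraries beyond counting error, was 11.8% against a median of 4.01% over the tested genes of the set. Summed over the 6 genes, the level was 2849.5, 2706, 2675 and 2816 CPM in the controls and 1218, 1312, 1339 and 1181 CPM after knockdown. The make-up of that sum also shifted. CXCL8 supplied 44.0 ± 0.613% of it in the controls and 38.0 ± 0.620% after knockdown. The share of CXCL1 went from 30.1 ± 0.842% to 36.5 ± 0.734%.

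These 6 genes lie together on chromosome 4, and 5 of them carry the consensus word of NF-kB, called the kB consensus, within 250 bases before and 50 after their annotated start. The stretches are shown because they are almost the same, and any part of them in the falls was not tested. Capitals mark the match, on either strand, with overlapping matches joined, and the sequences and starts are those of RefSeq on GRCh38.p14:
CXCL1: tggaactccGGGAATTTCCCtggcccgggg
CXCL2: tggagctccGGGAATTTCCCtggcccggga
CXCL3: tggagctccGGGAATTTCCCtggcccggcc
CXCL5: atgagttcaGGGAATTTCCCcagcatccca
CXCL6: ctgagttcaGGGAATTTCCCcagcatccca
The positions are chr4:73869305-73869334 (plus strand) for CXCL1, chr4:74099253-74099282 (minus strand) for CXCL2, chr4:74038748-74038777 (minus strand) for CXCL3, chr4:73998748-73998777 (minus strand) for CXCL5 and chr4:73836579-73836608 (plus strand) for CXCL6. All 5 hold the same capital letters, which begin 79 bases before the start in CXCL1 and CXCL3, 78 in CXCL2, 91 in CXCL5 and 90 in CXCL6. The windows of CXCL5 and CXCL6 share a run of 45 bases, those of CXCL1 and CXCL2 a run of 42. The CXCL8 window holds no match to the consensus as searched. It holds the AP-1 word TGANTCA, at chr4:73740421-73740450 (plus strand), 137 bases before the start, in capitals here:
CXCL8: aggaagtgtgaTGACTCAggtttgccctga

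Of the 5 other CXC and CX3C chemokines, 4 fell, and CXCL12 rose. CXCL10, an interferon-induced ligand of CXCR3 on T cells, was at 2.25, 1.20, 1.38 and 2.13 CPM in the controls and at 0.602, 0.353, 0.775 and 0.557 CPM after knockdown (log2 change -1.61, SE 0.265, adjusted p = 8.1e-06 by edgeR), from 29 to 60 counts in the controls and from 9 to 18 after knockdown. CXCL11, its neighbour on chromosome 4 and a ligand of the same receptor, was at 2.02, 2.70, 2.19 and 2.33 CPM in the controls and at 0.946, 1.37, 1.29 and 1.67 CPM after knockdown (log2 change -0.80, SE 0.188, adjusted p = 0.000706 by edgeR). Both were rare transcripts whose groups did not overlap, and the SE of CXCL10 was the second widest among the tested genes, after that of CCL5. CXCL16, a membrane-anchored chemokine that binds CXCR6, fell from 24.1 ± 1.16 to 16.8 ± 1.04 CPM (log2 change -0.52, SE 0.0573, adjusted p = 9.81e-09 by edgeR). CX3CL1 (fractalkine), the one chemokine with 3 residues between its first cysteines, fell from 4.61 ± 0.404 to 3.21 ± 0.308 CPM (log2 change -0.52, SE 0.121, adjusted p = 0.00065 by edgeR). CXCL12, the ligand of CXCR4 and ACKR3 that retains stem cells in their niche, was at 31.7, 28.3, 29.99 and 29.1 CPM in the controls and at 32.1, 35.9, 35.6 and 34.4 CPM after knockdown (log2 change 0.21, SE 0.0495, adjusted p = 0.000626 by edgeR). Every knockdown library of CXCL12 was above every control library by a narrow margin.

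CXCL10 and CXCL11 carry kB matches as well, and CXCL10 also carries the core of the interferon-stimulated response element (ISRE), which is GAAA, then 2 bases of any kind, then GAAA. They are printed as examples, and IL4R, which rose, also holds kB matches, not printed:
CXCL10: tctgcaacatGGGACTTCCCcaggaacagc
CXCL10: gaggagcagaGGGAAATTCCgtaacttgga
CXCL10: tcatgttttgGAAAGTGAAAcctaattcac
CXCL11: gactcaaagaGGGAAATTCCtgtgccataa
The first and second hold kB matches at chr4:76023600-76023629 (minus strand) and chr4:76023655-76023684 (minus strand), the third the ISRE core at chr4:76023699-76023728 (minus strand), and the fourth a kB match at chr4:76036127-76036156 (minus strand).

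All 3 tested CC chemokines fell. CCL20, which draws CCR6-bearing T helper and dendritic cells to epithelia, had the lowest log2 change of the set: it was at 31.9, 31.97, 28.9 and 33.1 CPM in the controls and at 7.27, 9.11, 8.95 and 7.12 CPM after knockdown (log2 change -1.96, SE 0.0707, adjusted p = 1.5e-18 by edgeR), and 25.8% of the control level was left. CCL2, the main monocyte chemokine, was at 126, 116, 105 and 119.8 CPM in the controls and at 54.1, 56.9, 56.3 and 41.1 CPM after knockdown (log2 change -1.17, SE 0.114, adjusted p = 0.000152 by edgeR). Knockdown replicate 4 was the lowest of the CCL2 values, and the biological coefficient of variation was 11.3%. CCL5, a chemokine for T cells and monocytes, was at 0.975, 1.28, 0.998 and 1.24 CPM in the controls and at 0.688, 0.157, 0.646 and 0.478 CPM after knockdown (log2 change -1.20, SE 0.298, adjusted p = 0.00123 by edgeR). Knockdown replicate 2 was the lowest, and the groups did not overlap. CCL5 rests on few counts, at most 34 in a library, and 15.96% of the 50-base words of its transcript also occur in other genes. CCL26, an eosinophil chemokine, had too few counts to be tested, with 3, 1, 1 and 2 counts in the controls and 6, 13, 9 and 8 counts after knockdown. The kB match of CCL20 lies at chr2:227813753-227813782 (plus strand), and its letters differ from those of the CXC genes:
CCL20: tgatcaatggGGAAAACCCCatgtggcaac

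**Figure D2:**
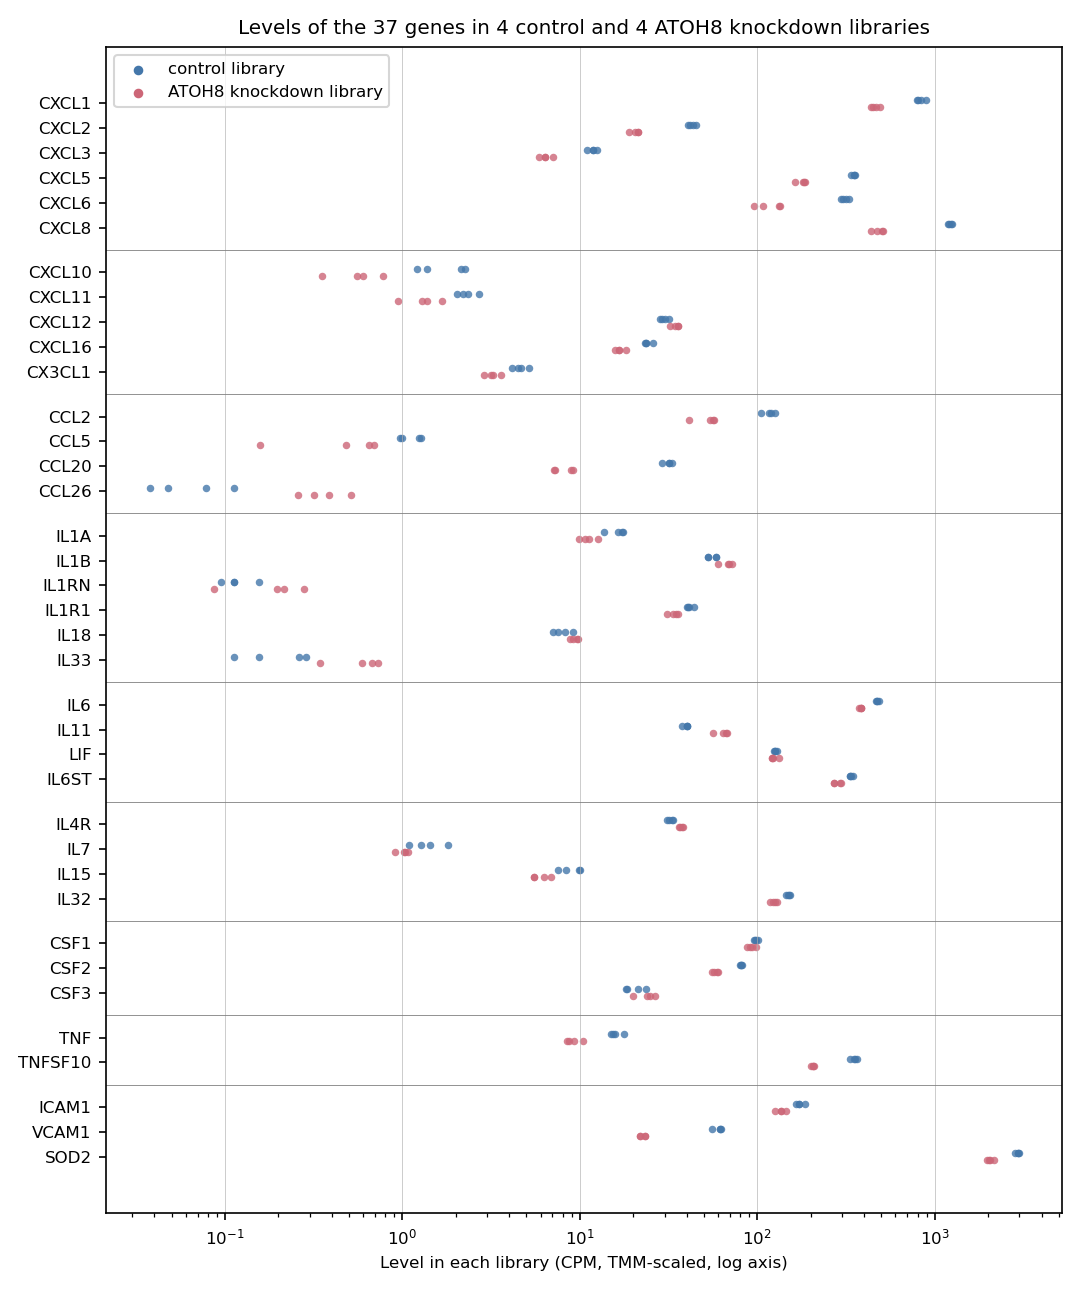
Level of each of the 37 genes in each library (x axis, CPM on a log scale; y axis, genes grouped by role), with control libraries in blue and ATOH8 knockdown libraries in red. For the 6 neutrophil chemokines at the top every red point lies left of every blue one, and IL11, IL1B, CXCL12 and IL4R show the opposite order.

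In the interleukin-1 family the 2 agonists parted: IL1A fell and IL1B rose. IL1A, an alarmin active without cleavage, fell from 16.2 ± 1.74 to 11.1 ± 1.12 CPM (log2 change -0.56, SE 0.0797, adjusted p = 1.7e-06 by edgeR). IL1B, whose precursor is cleaved by caspase-1, was at 58.6, 52.4, 52.5 and 58.1 CPM in the controls and at 72.2, 69.4, 68.0 and 60.0 CPM after knockdown (log2 change 0.28, SE 0.0546, adjusted p = 0.000379 by edgeR). The lowest knockdown value of IL1B, in replicate 4, stood just above the highest control value. IL1R1, the receptor through which both signal, fell from 41.5 ± 1.68 to 33.6 ± 2.04 CPM (log2 change -0.30, SE 0.0481, adjusted p = 4.74e-06 by edgeR). IL18, another cytokine cleaved by caspase-1, was at 7.57, 8.22, 9.13 and 7.06 CPM in the controls and at 8.77, 9.74, 9.64 and 9.15 CPM after knockdown (log2 change 0.23, SE 0.0861, adjusted p = 0.0275 by edgeR), with overlapping groups. Its call was lost with DESeq2 (adjusted p = 0.0685) and when any of 4 libraries was left out: control replicate 1 (0.0746) or 4 (0.119), or knockdown replicate 2 (0.0695) or 3 (0.0629). The receptor antagonist IL1RN had 3, 3, 2 and 4 counts in the controls and 5, 5, 2 and 7 counts after knockdown. IL33, a nuclear alarmin, had 7, 3, 6 and 4 counts in the controls and 17, 15, 8 and 17 counts after knockdown, higher in each knockdown library but too rare for the filter.

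Of the 4 genes of the gp130 family, IL6 and IL6ST fell, IL11 rose and LIF was not called. IL6, the inducer of the acute phase response, was at 487, 469.6, 475 and 473 CPM in the controls and at 386, 374, 383 and 382 CPM after knockdown (log2 change -0.32, SE 0.0291, adjusted p = 2.4e-10 by edgeR), a fall to 80.1% of control with tight groups. IL11, which acts on stromal and epithelial cells, was at 40.1, 40.0, 37.5 and 40.2 CPM in the controls and at 66.9, 64.5, 67.5 and 56.5 CPM after knockdown (log2 change 0.69, SE 0.0488, adjusted p = 7.69e-12 by edgeR), and its mean rose to 162% of control. The lowest knockdown library of IL11 stood well above the highest control library. LIF, known for holding mouse stem cells undifferentiated, was at 125, 128, 124 and 126 CPM in the controls and at 132, 121, 121 and 122 CPM after knockdown (log2 change -0.02, SE 0.0345, adjusted p = 0.612 by edgeR), with overlapping groups and no call. IL6ST, which encodes gp130 itself, was at 347, 333, 334 and 339 CPM in the controls and at 272, 291, 269 and 297 CPM after knockdown (log2 change -0.26, SE 0.0335, adjusted p = 1.47e-07 by edgeR), with every knockdown library below the controls. For IL6, the kB match is at chr7:22727117-22727146 (plus strand), and for IL11 the AP-1 word is at chr19:55370541-55370570 (minus strand). IL6ST, which fell, also holds a kB match, and AP-1 words stand before CXCL8, CXCL11 and IL1A too, which fell. Any part of these words in the direction of change was not tested. The stretches of IL6 and IL11 are:
IL6: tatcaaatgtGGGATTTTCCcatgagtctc
IL11: ggcagggagggTGAGTCAggatgtgtcagg

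Of 4 other interleukin genes tested, 2 fell, IL4R rose and IL7 was not called, and of 3 colony-stimulating factors CSF2 alone was called. IL15, which sustains natural killer and memory T cells, fell from 8.96 ± 1.24 to 6.06 ± 0.646 CPM (log2 change -0.57, SE 0.102, adjusted p = 3.23e-05 by edgeR). IL32, a cytokine of humans with no mouse counterpart, was at 145, 153, 149.6 and 152 CPM in the controls and at 126, 118, 128 and 122 CPM after knockdown (log2 change -0.28, SE 0.0340, adjusted p = 7.49e-08 by edgeR), and the lowest control stood above every knockdown library. IL4R, the receptor chain shared by IL-4 and IL-13, was at 33.1, 31.7, 31.0 and 33.6 CPM in the controls and at 38.1, 37.6, 36.1 and 36.5 CPM after knockdown (log2 change 0.19, SE 0.0451, adjusted p = 0.000617 by edgeR), and its groups did not overlap. IL7, a growth factor of lymphocytes, was at 1.40 ± 0.303 CPM in the controls and at 1.01 ± 0.0736 CPM after knockdown and was not called (log2 change -0.47, SE 0.220, adjusted p = 0.0763 by edgeR), though it was without control replicate 4 (adjusted p = 0.0427). Of the colony-stimulating factors, CSF2 (GM-CSF) fell from 81.3 ± 0.817 to 58.0 ± 2.28 CPM (log2 change -0.49, SE 0.0368, adjusted p = 4.87e-12 by edgeR). CSF1, which sustains macrophages, was at 97.9 ± 2.11 CPM in the controls and at 92.4 ± 4.32 CPM after knockdown (log2 change -0.09, SE 0.0364, adjusted p = 0.0514 by edgeR). CSF3 (G-CSF), which drives neutrophil production, was at 20.4 ± 2.53 and 23.8 ± 2.74 CPM (log2 change 0.22, SE 0.106, adjusted p = 0.124 by edgeR). Neither passed the threshold, and the call of each turned with the settings: CSF1 was called lower without knockdown replicate 1 (adjusted p = 0.011). CSF3 was called higher by DESeq2 (0.0291), without a filter on low counts (0.00141), and without control replicate 1 (0.0117) or knockdown replicate 4 (0.005).

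Both members of the TNF family fell. TNF, a cytokine that activates NF-kB through its own receptors, was at 17.7, 15.0, 15.8 and 15.3 CPM in the controls and at 9.29, 8.44, 10.4 and 8.64 CPM after knockdown (log2 change -0.80, SE 0.0761, adjusted p = 6.28e-10 by edgeR). TNFSF10 (TRAIL), which triggers apoptosis through death receptors, was at 363, 354, 333 and 349.9 CPM in the controls and at 200.2, 209, 207 and 206 CPM after knockdown (log2 change -0.77, SE 0.0319, adjusted p = 8.58e-18 by edgeR). No knockdown library of either came near a control library. The adhesion molecules and SOD2 fell too, by unequal amounts. VCAM1, the ligand of the integrin VLA-4 on lymphocytes and monocytes, was at 62.6, 61.8, 55.9 and 62.0 CPM in the controls and at 21.8, 23.2, 23.3 and 21.7 CPM after knockdown (log2 change -1.43, SE 0.0475, adjusted p = 8.59e-20 by edgeR), and 37.2% of the control level was left. ICAM1, the ligand of the integrin LFA-1, was at 186, 173, 173 and 164 CPM in the controls and at 144, 136, 136 and 126 CPM after knockdown (log2 change -0.36, SE 0.0404, adjusted p = 7.44e-08 by edgeR). Its groups were apart too, but closer than those of VCAM1. SOD2, the manganese superoxide dismutase of mitochondria, had the highest CPM of the set and was at 2964, 2948, 2839 and 2968 CPM in the controls and at 1962, 2165, 2042 and 2026 CPM after knockdown (log2 change -0.52, SE 0.0333, adjusted p = 1.57e-13 by edgeR). Its annotated exons overlap those of WTAP on the other strand, and those of IL6, LIF, IL6ST, IL4R, IL1R1, ICAM1, CXCL16 and IL7 also meet an antisense gene. Whether the counting used strand is not stated in the labels, so reads of such pairs may not have been separated. Along the same strand, exons of CXCL6 overlap the pseudogene PPBPP1, those of IL32 the RNA gene RNU1-125P, and those of SOD2 a further GENCODE 29 gene of the same symbol. Of the 50-base words of SOD2, 10.4% also occur in other genes. VCAM1 carries a kB match at chr1:100719670-100719699 (plus strand) and, closer to its start, an ISRE core at chr1:100719717-100719746 (plus strand), read on the other strand:
VCAM1: tccccttgaaGGGATTTCCCtccgcctctg
VCAM1: aagcacagacTTTCTATTTCactccgcggt

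Per kilobase of the principal transcript, which allows levels to be compared between genes, CXCL1 and CXCL8 led in control cells at 757 ± 40.7 and 713 ± 16.9 CPM per kb, with overlapping ranges. IL6 followed at 312 ± 4.89 CPM per kb, and SOD2 at 205 ± 4.31 over a principal transcript of 14.3 kb, so that its level would be higher over a shorter isoform. CXCL6 (182 ± 8.30) and TNFSF10 (179 ± 6.41 CPM per kb) came next and did not differ beyond their spread. After knockdown CXCL1 stood at 419.5 ± 20.6 and CXCL8 at 282 ± 19.0 CPM per kb, and their ranges no longer overlapped. IL6 was then at 249.8 ± 3.35 CPM per kb, below the lowest CXCL8 library. Among the 37 genes CCL20 moved from rank 12 to 20 and VCAM1 from rank 18 to 24 in level per kb. Of 2252 genes with a mean of at least 100 CPM, 11 belonged to the set. Of these 11, 10 fell, where 37.9% of such genes fell, and 5 fell by at least 1.5-fold, where 2.35% of such genes did.

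**Figure D3:**
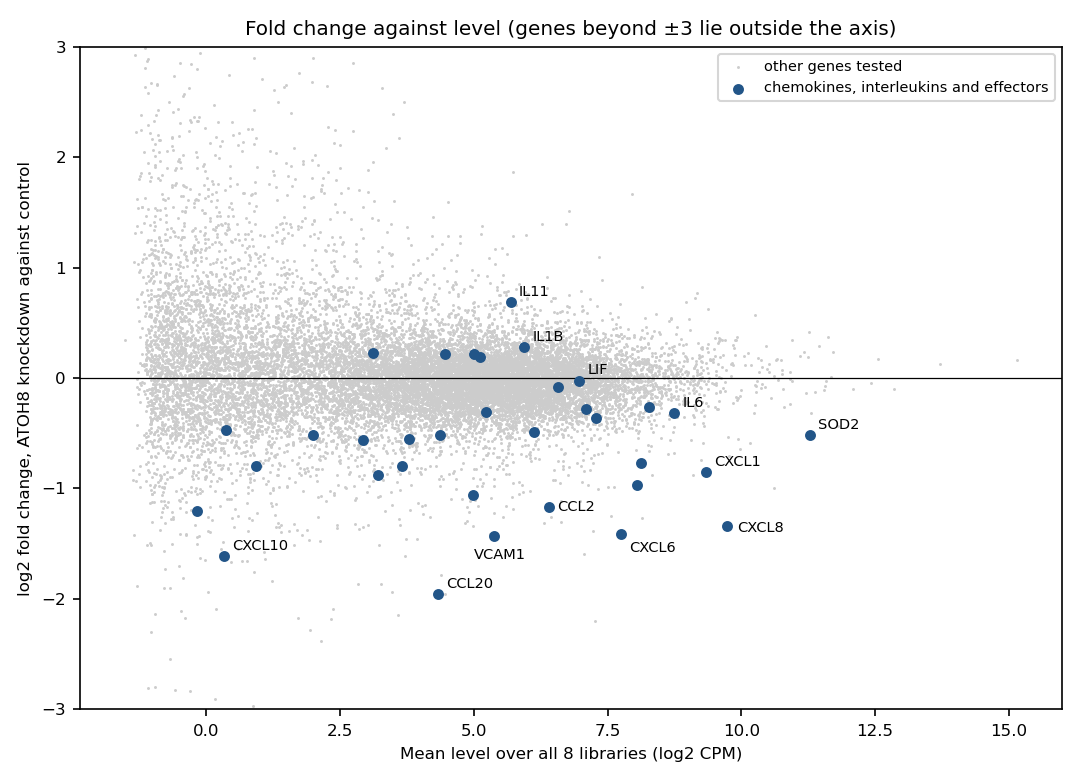
Log2 fold change of ATOH8 knockdown against control (y axis) against the mean level over all libraries (x axis, log2 CPM) for all genes tested (grey) and the 34 tested genes of the set (blue, some named). CXCL8 at log2 -1.34 and CXCL1 at log2 -0.85 lie among the most abundant genes of the set, and IL11 at 0.69 is the highest of the blue points.

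Ratios of CPM within a library show how unequal the changes of related genes were, and are given with no test. The ratio of CXCL8 to CXCL1 was 1.38, 1.49, 1.499 and 1.49995 in the controls and 1.05, 1.08, 1.04 and 1.00 after knockdown. The ratio of VCAM1 to ICAM1 was 0.337, 0.358, 0.324 and 0.377 in the controls and 0.151, 0.171, 0.171 and 0.172 after knockdown. Both ratios were lower in every knockdown library than in any control library. The ratio of IL1B to IL1A was 3.57, 3.03, 3.82 and 3.31 in the controls and 6.44, 7.01, 5.41 and 5.58 after knockdown, and that of IL11 to IL6 was 0.0825, 0.0853, 0.0791 and 0.0850 in the controls and 0.173, 0.172, 0.176 and 0.148 after knockdown. These were higher in every knockdown library. So was the ratio of CSF3 to CSF2, at 0.290, 0.224, 0.228 and 0.262 in the controls and 0.464, 0.417, 0.398 and 0.362 after knockdown, although CSF3 itself was not called.

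**Figure D4:**
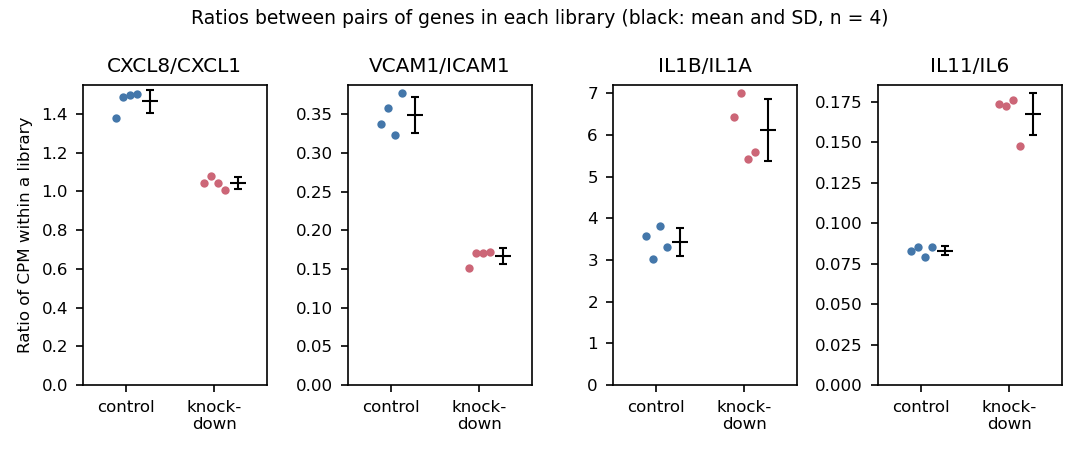
Ratio of the CPM of 2 genes within each library (y axis, from 0) for 4 pairs, with control libraries in blue, ATOH8 knockdown libraries in red and the mean and SD of 4 libraries in black. In each panel the groups do not overlap, with means of 1.47 and 1.04 for CXCL8 to CXCL1 and of 3.43 and 6.11 for IL1B to IL1A.

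Promoter windows were used for 27 of the 37 genes, 38 windows in all, and any on chromosome 8, where IL7 lies, were left out. The kB consensus, on either strand, was found in 13 of these windows (34.2%) and in 11.3% of the 35116 windows of all genes. The 13 genes that hold it were CXCL1, CXCL2, CXCL3, CXCL5, CXCL6, CXCL10, CXCL11, CCL20, IL6, IL6ST, IL32, IL4R and VCAM1, of which 12 fell and IL4R rose, with a median log2 change of -0.88. Of the 11 tested genes whose windows lack it, 8 fell and 3 rose, with a median of -0.49. Every tested gene with a window was called, so the medians by word leave out the 4 genes not called, IL7, LIF, CSF1 and CSF3. Of the 13 genes with the kB word, 5 are the related CXC genes with the same match, so they are not independent examples. CXCL8, TNF, ICAM1 and SOD2 are among those 11, so the word as searched in this window does not mark all genes that fell. The AP-1 word TGANTCA was in the windows of CXCL8, CXCL11, IL1A, IL11 and IL1RN (6 of 38 windows, 15.8%, against 7.71% of all windows). The 4 of these that were tested had a median of -0.68, and the 20 tested genes without it -0.64. The ISRE core was in those of CXCL10, TNFSF10, VCAM1 and IL1RN (5 of 38 windows, 13.2%, against 3.57%). The 3 of these that were tested had a median of -1.43, and the 21 without it -0.52. Matches to different words were counted separately even where they overlap. A match is a description of letters and not of binding.

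For the related lists that follow, the shares over all genes tested were 25.9% called lower and 25.2% called higher, and counts near them say nothing particular of a list. In the NF-kB pathway, among 20 core subunits, kinases and feedback genes, there were 9 that fell, 3 that rose and 8 with no call, and the median log2 change was -0.06. Lower were MAP3K7 (TAK1, the kinase upstream of the IKK complex), from 111 ± 2.36 to 73.2 ± 3.03 CPM (log2 -0.60, SE 0.0359), NFKBIZ, a nuclear cofactor needed for IL6 and other secondary targets (log2 -0.45, SE 0.0326), and BIRC3, a ubiquitin ligase of the TNF receptor complex (log2 -0.47, SE 0.0367). Higher were the kinase IKBKB (log2 0.29, SE 0.0395) and the deubiquitinases TNFAIP3 (A20, log2 0.12, SE 0.0335) and CYLD (log2 0.11, SE 0.0365), which restrain the pathway. RELA, the main activating subunit, named after its value was seen, was at 78.7 ± 2.69 CPM in the controls and at 79.0 ± 2.34 CPM after knockdown (log2 0.00, SE 0.0364).

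Of 38 receptors and signalling chains of these ligands, 22 could be tested. Among these, 8 were called higher (25.2% of all genes), 7 lower (25.9% of all genes) and 7 neither, with a median of -0.00. The 8 include TNFRSF1B and IL13RA2, at control means of 0.252 and 0.478 CPM. Both passed the count filter through the knockdown libraries, where they were high, so their calls add no support to this count. With at least 1 CPM in 4 libraries, 6 were called higher and 7 lower. The receptors that leukocytes use for the chemokines were near absent: CCR2, CCR3, CCR6 and CXCR6 were at 0 counts in all 8 libraries, which allows up to 0.112 to 0.143 CPM (3 counts) per library, counting error only, and CXCR1, CXCR2 and CXCR4 had at most 3 counts. ACKR3, the scavenging receptor for CXCL12 and CXCL11, fell from 10.2 ± 0.286 to 6.04 ± 0.218 CPM (log2 -0.76, SE 0.0812), IL15RA, which presents IL15, from 3.28 ± 0.592 to 1.38 ± 0.303 CPM (log2 -1.25, SE 0.177), and TNFRSF11B (osteoprotegerin, a secreted decoy that binds TRAIL and RANKL) from 139.9 ± 6.79 to 56.6 ± 3.57 CPM (log2 -1.30, SE 0.0427). The TRAIL decoy receptors TNFRSF10D, from 30.9 ± 1.03 to 67.2 ± 1.35 CPM (log2 1.12, SE 0.0409), and TNFRSF10C (log2 0.70, SE 0.107) rose, as did the TNF receptor TNFRSF1A (log2 0.25, SE 0.0348).

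Of 25 JAK, STAT, SOCS and interferon signalling genes, 8 were called lower, 6 higher and 11 neither, close to the shares over all genes of 25.9% and 25.2% (median -0.01). The interferon-gamma receptor chains IFNGR1, from 49.0 ± 2.32 to 37.0 ± 2.03 CPM (log2 -0.41, SE 0.0464), and IFNGR2 (log2 -0.33, SE 0.0494) fell. The kinase TYK2 (log2 0.22, SE 0.0348) and the feedback inhibitors SOCS1 (log2 0.45, SE 0.119) and SOCS3 (log2 0.19, SE 0.0557) rose. Of 11 factors that bind or degrade cytokine transcripts, 4 fell and 1 rose, beside 25.9% and 25.2% of all genes (median 0.01). HNRNPD (AUF1) fell from 232 ± 6.49 to 184 ± 3.25 CPM (log2 -0.34, SE 0.0313), and RC3H2 (log2 -0.31, SE 0.0346) and ZC3H12A, the nuclease Regnase-1 that cuts IL6 RNA (log2 -0.31, SE 0.0436), fell, while ZFP36L1 (log2 0.10, SE 0.0312) rose. Among 10 tested genes of cytokine processing and release, 7 fell and 2 rose, beside the same shares of all genes (median -0.21). CASP1, which cleaves the precursors of IL1B and IL18, fell from 15.4 ± 1.97 to 8.005 ± 0.650 CPM (log2 -0.94, SE 0.0853), the protease CTSS from 46.8 ± 1.39 to 20.9 ± 1.10 CPM (log2 -1.16, SE 0.0482), and CASP4, which senses lipopolysaccharide in the cytosol, fell as well (log2 -0.50, SE 0.0404). NLRP1, an inflammasome sensor (log2 0.25, SE 0.0478), and ADAM10, which sheds CX3CL1 and CXCL16 from the membrane (log2 0.09, SE 0.0345), rose.

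**Figure D5:**
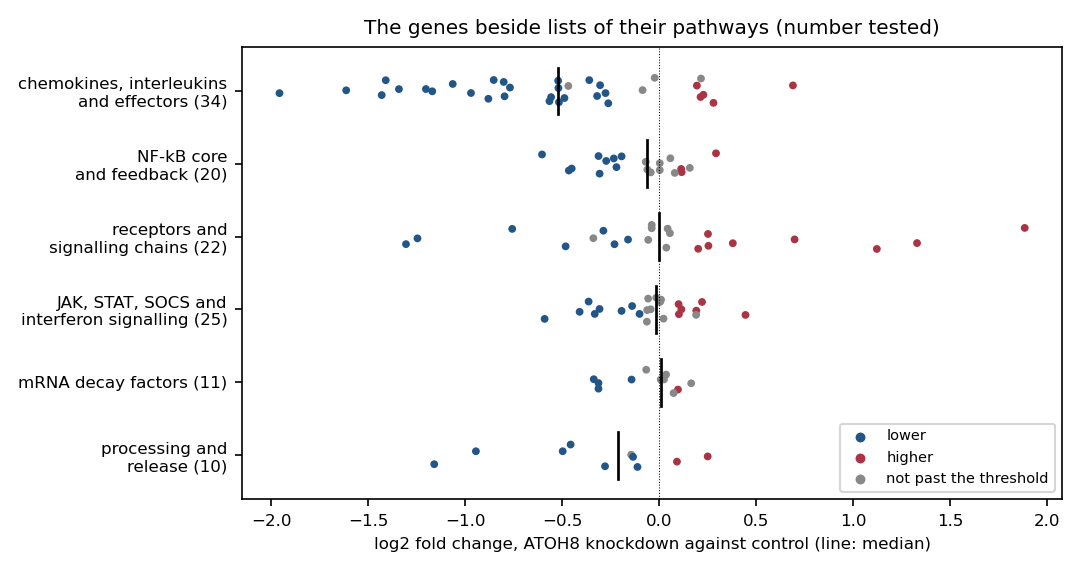
Log2 fold change of ATOH8 knockdown against control (x axis) for each tested gene of the set and of 5 lists of related genes (y axis, with the number tested), coloured by call, with the median as a black line. The median of the set is -0.52, and those of the lists lie between -0.21 and 0.01.

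Markers were also read for leukocytes, which make many of these proteins in tissue. Of 16 leukocyte markers, MS4A1, NKG7, FCGR3A, TYROBP and HLA-DRA were at 0 in every library, PTPRC (CD45) and CD3E had at most 2 counts, and 4 could be tested. Of these, CD68 and ITGAM were called higher (25.2% of all genes) and CD14 and CSF1R were not called. ITGAM, an integrin chain of myeloid cells, was at 0.190 ± 0.0338 CPM in the controls and at 1.14 ± 0.297 CPM after knockdown (log2 2.56, SE 0.320), with 4 to 36 counts per library. It passed the count filter only through the knockdown libraries, where it was high, so its call is no support for a change in these markers. CD14, a monocyte receptor for lipopolysaccharide, had 22 to 38 counts per library (log2 -0.19, SE 0.229). The markers' summed level, nearly all of it the lysosomal gene CD68, ran from 76.8 to 87.0 CPM in the controls and from 103 to 114 CPM after knockdown. Of 10 endothelial markers, SELE and EMCN were at 0 and PECAM1 had at most 1 count. The sum ran from 11.3 to 12.7 CPM in the controls and from 17.4 to 20.6 CPM after knockdown. Called higher were 3 of 5 tested markers (25.2% of all genes), TIE1, VWF and TEK. Of these, VWF and TEK had few counts in the controls, at means of 0.430 and 0.269 CPM and lowest counts of 6 and 3. The control libraries alone would not have carried VWF and TEK past the count filter. They passed through the knockdown libraries, where they were high, so their calls are no support for a change in these markers. Of 10 mesangial and fibroblast markers 8 were tested, of which 7 rose (25.2% of all genes) and LUM fell (25.9% of all genes fell). Their sum ran from 484 to 513 CPM in the controls and from 653 to 742 CPM after knockdown. Of the 10 podocyte markers 6 were tested, of which 3 fell and 1 rose, beside 25.9% and 25.2% of all genes. Their sum ran from 275 to 287 CPM in the controls and from 221 to 257 CPM after knockdown. The part of the leukocyte, endothelial, mesenchymal and podocyte markers in the changes of the set was not tested.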

How the data were processed

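The authors deposited whole-number read counts per gene, 1 column per library, with Ensembl identifiers. The submitters' processing notes name STAR, featureCounts, FastQC, DESeq2 and the build hg19, but whether the counted annotation was of that build is not settled. The sources used here give no versions, annotation or strand setting, and no rule for reads that fit several genes. Per the labels' protocols, RNA integrity numbers were above 7.0 and the library kit was directional with poly(A) selection.

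Of 60609 rows, 1 with a missing cell and 44 empty copies of pseudoautosomal genes were left out. A gene name table gave 60295 symbols and GENCODE 29 a further 250, as well as transcript lengths. filterByExpr by group left 16884 genes, TMM-scaled and tested by the quasi-likelihood F test of edgeR (edgeR 4.0.16, limma 3.58.1, R 4.3.3), with Benjamini-Hochberg adjustment over all of them and a threshold of 0.05. The filter asks for enough counts in as many libraries as a group holds, so a gene can pass through 1 group alone. Fold changes are log2 of knockdown against control, and SE was derived from F. The script was first tested on simulated data. Libraries of a group differed beyond sampling noise (chi-square per gene 1.90 to 4.48).

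The genes, the related lists and the marker lists were chosen with earlier results of these data known. Library values are given for genes called with at least a 1.5-fold change, called against the majority direction, or with a mean of at least 100 CPM, and up to 3 genes per direction are named from each list. Some listed genes are not reported here. Alternatives were DESeq2 size factors, library size alone, upper-quartile factors, DESeq2 1.42.0, other filters, a replicate block and each library left out. Promoter words were searched in Python 3.11.15.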

Additional observations from a re-analysis of the deposited data

Results flagged for a closer look

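In 4 of 70 groups of 4 libraries examined, 1 library stood apart from the other three by more than Dixon's critical value for the gap divided by the range, where about 1 in 20 groups does so by chance. In 3 of these it was control replicate 3, the library with the lowest total count: IL11 was at 37.5 CPM there, VCAM1 at 55.9 CPM and SOD2 at 2839 CPM, each the lowest of its group. Without that library the log2 changes were 0.67 for IL11, -1.47 for VCAM1 and -0.53 for SOD2, and all 3 were still called. LIF was at 132 CPM in knockdown replicate 1, the highest of its group, and without it the log2 change was -0.06 (edgeR adjusted p = 0.167).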

How the results depend on the processing

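The number of genes of the set called lower was 25 under DESeq2 size factors, library size alone, upper-quartile factors, the DESeq2 Wald test and no filter, 24 with at least 1 CPM in 4 libraries, which tests 33 of them, and 25 to 26 when each library was left out in turn. Falls of at least 1.5-fold numbered 13 with that stricter filter and 14 to 16 over the omissions. The number called higher was 8 without a filter on low counts, in place of 5, since CCL26, IL33 and CSF3 were then called, and 4 to 6 over the omissions. Rises of at least 1.5-fold numbered 3 without the filter and 1 to 2 over the omissions, in place of 1. The second is IL33, which passes the filter in some fits with fewer libraries, through its knockdown libraries alone. These are the fits without control replicate 1, 2, 3 or 4, or knockdown replicate 3. The median log2 change of the set stayed between -0.54 and -0.51 over the omissions. Of 509 refits of single genes, 495 kept direction and side of the threshold, 5 lost the call (all IL18) and 8 gained one (CSF1, CSF3 and IL7). In the other 1, LIF, never called, turned to log2 0.00471 with upper-quartile factors. With the replicate number as a block, 26 genes of the set were called lower and 6 higher, and CSF1 (adjusted p = 0.0292) and CSF3 (0.0307) were the genes that changed their call. Libraries with the same number hardly deviated together (correlation -0.00543 to 0.0642 over 2000 genes). Control replicates 1, 2 and 4 correlated best with the knockdown library of their own number, and control replicate 3 with knockdown replicate 2. As these correlations were small, the numbers were not taken to pair the samples. Genes with few counts, CCL5, CXCL10, CXCL11 and IL7 among the tested, have the widest errors.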

Other observations

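Among the abundant chemokines, CXCL6 and CCL2 varied most between libraries. Their biological coefficients of variation were 11.8% and 11.3%, against 3.88% for CXCL8 and 3.92% for CXCL1. Knockdown replicate 4 held the lowest value of CXCL6 (95.6 CPM) and of CCL2 (41.1 CPM), and also of IL11 (56.5 CPM) and IL1B (60.0 CPM), of which the latter pair rose in the group as a whole. Without that library, the log2 changes were -1.32 for CXCL6, -1.07 for CCL2, 0.74 for IL11 and 0.33 for IL1B.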
